A study of Mus musculus with 2 samples.

Results

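The 10 genes described here encode Toll-like receptors with their co-receptors (Tlr2, Tlr3, Tlr4, Cd14 and Ly96) and scavenger receptors (Marco, Msr1, Stab1, Stab2 and Cd36). They were chosen by name, out of 54438 genes in the deposited tables, and hold 51 of 137767 listed transcripts. The data are 2 bulk RNA libraries of cells labelled mammary basal cells, taken by cell sorting from mammary glands of C57BL/6 mice, 8 weeks of age and wild type. The series describes basal cells positive and negative for Pd-l1, a ligand of an inhibitory T cell receptor. Their titles, W1 and W2, are all that sets the labels of the libraries apart. Neither was therefore placed in a Pd-l1 class, and a difference between W1 and W2 cannot be read as one between Pd-l1 classes. Nothing in the sources used here gives the number of mice or cells or the gates. With 2 libraries of unknown class there is no replicate and no p-value, so the exact 95% intervals on reads express counting error alone. No molecular identifiers were given, so reads that copy the same molecule cannot be told apart, and the intervals may be too narrow.

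Toll-like receptors recognise microbial molecules and start signalling through the adaptors MyD88 and TRIF toward NF-kB and interferon genes. Lipopolysaccharide is handed by CD14 to MD-2, the product of Ly96, which sits on TLR4, while TLR2 pairs with TLR1 or TLR6 to bind bacterial lipoproteins and TLR3 senses double-stranded RNA in endosomes. Scavenger receptors bind modified lipoproteins, bacteria, cell debris and matrix fragments, and are known from macrophages and from the endothelium of lymph and blood sinuses. Cd14 is also known from luminal progenitor cells of the mammary gland.

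The libraries stood apart in cell type markers, which touches every value below. W1 held 3065843 counted reads and W2 held 3826943. Of 10 compared basal and myoepithelial markers, 0 were higher in W1 and 9 were higher in W2, and the basal keratin gene Krt14 had 1 read in W1 and 6230 reads in W2. All 9 compared general endothelial markers were higher in W1, with a summed level of 4929 TPM in W1 and 7.07 TPM in W2. Of 7 compared macrophage and monocyte markers, 5 were higher in W1 and 0 in W2, with a summed level of 77.8 TPM in W1 and 12.0 TPM in W2. The basal label was thus not borne out by the markers of W1. In W2 luminal epithelial markers were higher too, 7 of 9 compared, with 1 higher in W1. The basal markers Trp63 and Itgb4 had 0 reads in both libraries. In such bulk samples, fewer cells of a type and less RNA per cell cannot be told apart.

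Of the 10 genes, 9 were higher in W1 and 1, Tlr2, was higher in W2. A call needed a ratio of TPM + 1 of 2 or above, and 12587 genes that reached 1 TPM in either library were compared. Of all these, 34.7% were higher in W1 and 32.9% in W2, and with TPM rescaled over protein-coding genes alone the shares were 42.8% and 25.7%. In W1 Marco had 3087 reads and Tlr3 had 2, with 0 for both in W2, so the 9 calls do not rest on like amounts of data. Among genes with at least 20 reads in a library, 8 of the 10 remained and 7 were higher in W1, where over all 9000 such genes 29.6% were higher in W1 and 34% in W2.

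The share of all genes called moved with the rule, and is given for the rules under which the 10 genes were counted again. With a pseudocount of 0.1 it was 36.6% for W1 and 35.3% for W2, and with a pseudocount of 5 it was 16.8% and 19.9%. Without mitochondrial, ribosomal protein, rRNA and snRNA genes it was 33.3% and 37.5%, and with upper quartile scaling 36.9% and 30%. With FPKM it was 37.8% and 28.1%, and with reads scaled to library totals 39.2% and 28.9%. With no filter it was 27.6% and 26.2%, and with the most-read transcript of each gene 34.4% and 34.4%. With intervals wholly beyond 2-fold it was 23.7% and 23.1%, and with protein-coding transcripts alone 28.5% and 34.2%. The 10 genes gave 7 to 9 higher in W1 and 1 higher in W2 under each of these.

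**Figure D1:**
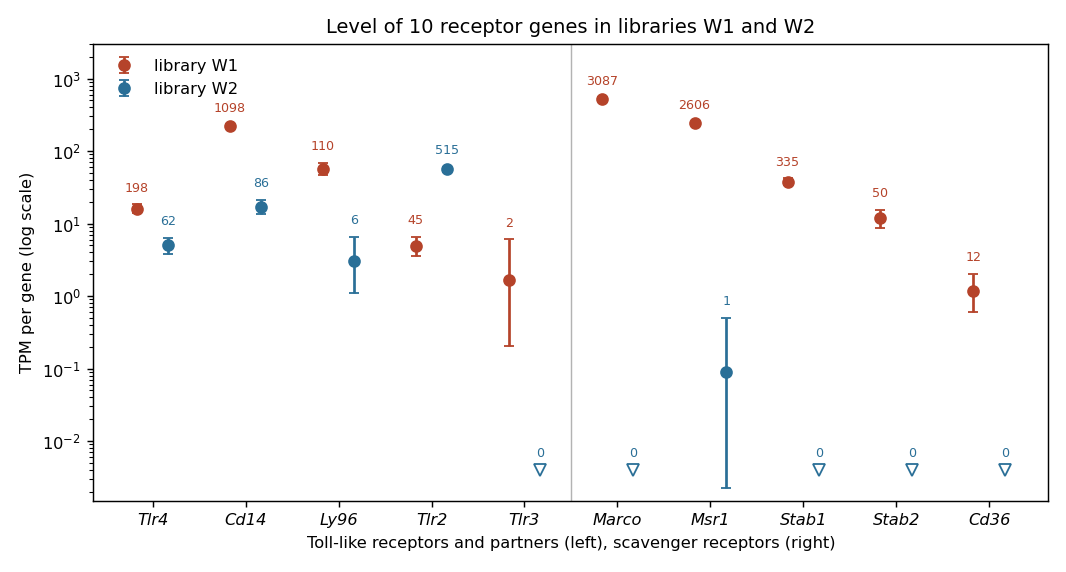
Level of each gene in TPM (log scale) in W1 (red, left of each pair) and W2 (blue, right), with exact 95% intervals on reads and the read count printed above each point. Open triangles mark genes with 0 reads and have no level. Tlr2 is the one gene with its point for W1 (4.93 TPM) below that for W2 (56.0 TPM).

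The 3 genes of the lipopolysaccharide receptor were all higher in W1. Tlr4, the signalling receptor (ENSMUSG00000039005.13, chromosome 4, 66827584 to 66930284, plus strand, build GRCm38), reached 16.03 TPM in W1 and 4.99 TPM in W2. These values rest on 198 and 62 reads, a 3.22-fold difference with an interval of 2.41 to 4.35. Cd14, the co-receptor that carries lipopolysaccharide (ENSMUSG00000051439.7, chromosome 18, minus strand), reached 221 TPM in W1 and 17.1 TPM in W2. With 1098 and 86 reads the difference was 12.9-fold (10.3 to 16.2). Ly96, which encodes MD-2 (ENSMUSG00000025779.10, chromosome 1, 16688051 to 16709611, plus strand), reached 57.4 TPM in W1 and 3.03 TPM in W2, an 18.5-fold difference (8.21 to 51.4). Each of the 3 genes therefore had reads in both libraries. The 110 reads of Ly96 in W1 all fell on the coding transcript Ly96-201. Its 6 reads in W2 were 3 on that transcript and 3 on Ly96-203, annotated as a retained intron.

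Tlr2, the receptor of bacterial lipoproteins, lay on the other side (ENSMUSG00000027995.10, chromosome 3, 83836272 to 83841767, minus strand). It stood at 4.93 TPM in W1 and 56.0 TPM in W2, from 45 and 515 reads. The ratio of W1 over W2 was 0.0880 (0.0634 to 0.119), which makes Tlr2 11.4-fold higher in W2 (8.37 to 15.8). Tlr2 and Cd14 each have 1 listed transcript, so their values do not depend on how reads were divided among isoforms. Of the genes compared, 803 had a ratio further toward W2. Tlr1 and Tlr6, the genes of its partner receptors, had 0 reads in both libraries. Basal and luminal epithelial markers were higher in the same library as Tlr2, with summed levels of 155 TPM and 33.9 TPM in W1 and of 40103 TPM and 4349 TPM in W2, and their part in the result was not tested. Most of the basal sum in W1 came from Itga6, which was within 2-fold at 140 TPM in W1 and 170 TPM in W2. Of 9 compared luminal markers, 7 were higher in W2 and 1 in W1. That gene, Kit, which is known from luminal progenitors, had 67 reads in W1 and 0 in W2 and made up 25.5 TPM of the luminal sum in W1.

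The balance between Tlr4 and Tlr2 within a library does not depend on how the libraries are scaled. Tlr4 stood at 3.25 times the TPM of Tlr2 in W1 and at 0.0890 times in W2. In reads the ratio of the pair differed 36.3-fold between the libraries (23.6 to 56.8). Cd14 stood at 44.8 times the TPM of Tlr2 in W1 and at 0.305 times in W2. Within the lipopolysaccharide receptor the shift was smaller, since Cd14 stood at 13.8 times the TPM of Tlr4 in W1 and at 3.43 times in W2, a 3.99-fold difference in reads (2.74 to 5.81).

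Tlr3, the sensor of double-stranded RNA (ENSMUSG00000031639.12, chromosome 8, 45395665 to 45411080, minus strand), could hardly be read. It stood at 1.68 TPM in W1 from 2 reads and had 0 reads in W2, and both lie under the floor of 3 reads, so no fold is given. Both reads fell on the noncoding transcript Tlr3-207, and the coding transcripts had 0 reads in either library. Tlr3 overlaps the antisense gene Gm45542 over 381 exonic bases, and Gm45542 had 9 reads in W1 and 0 in W2. Whether counting used strand is not stated in the sources used here, so reads of the pair cannot be told apart. The coding transcripts of Tlr3 share most of their sequence, and Tlr3-201 and Tlr3-202 hold 119 and 46 stretches of 50 bases (50-mers) found in no other listed transcript.

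The other 9 Toll-like receptor genes, Tlr1, Tlr5 to Tlr9 and Tlr11 to Tlr13, all had 0 reads in both libraries. A gene at 0 is not shown to be silent, since transcripts with little sequence of their own mostly have 0 reads in these tables. Own sequence was not short for all of them, as Tlr9 has 1 listed transcript with 3429 own 50-mers, and Tlr6, Tlr12 and Tlr13 have 2923, 2847 and 4209. For comparison, Tlr2 and Tlr4 were read on transcripts with 2965 and 3211 own 50-mers.

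The class A scavenger receptor genes Marco and Msr1 were among the most divided genes of the libraries. Marco, a collagenous receptor of bacteria and particles (ENSMUSG00000026390.7, chromosome 1, 120474538 to 120505024, minus strand), reached 529 TPM in W1 from 3087 reads and had 0 reads in W2. Against a floor of 3 reads for W2 it was at least 1036-fold higher in W1, and 8 of the genes compared had a larger log2 ratio than its 9.05. Msr1, scavenger receptor A, which takes up modified lipoproteins (ENSMUSG00000025044.16, chromosome 8, 39581685 to 39642673, minus strand), reached 246 TPM in W1 and 0.090 TPM in W2. With 2606 reads and 1 read the difference was 2624-fold, with an interval of 470 to 103671, and 17 genes had a larger log2 ratio than its 7.82. Both genes thus belonged almost wholly to W1.

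The stabilins, large receptors of hyaluronan, matrix fragments and aged cells, followed the same direction at lower levels. Stab1 (ENSMUSG00000042286.13, chromosome 14, 31139013 to 31168641, minus strand) reached 37.7 TPM in W1 from 335 reads and had 0 reads in W2, a difference of at least 112-fold. Stab2 (ENSMUSG00000035459.18, chromosome 10, 86841198 to 87008025, minus strand) reached 11.8 TPM in W1 from 50 reads and had 0 reads in W2, at least 16.8-fold. Cd36, the class B receptor that takes up long-chain fatty acids (ENSMUSG00000002944.15, chromosome 5, 17781690 to 17888801, minus strand), was low in both libraries as counted. It stood at 1.17 TPM in W1 from 12 reads and had 0 reads in W2, at least 4.03-fold. All 12 reads fell on Cd36-204, which has 438 own 50-mers and 0 own coding bases, and the other 5 transcripts hold 0 to 90 own 50-mers, so the level of Cd36 is uncertain.

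**Figure D2:**
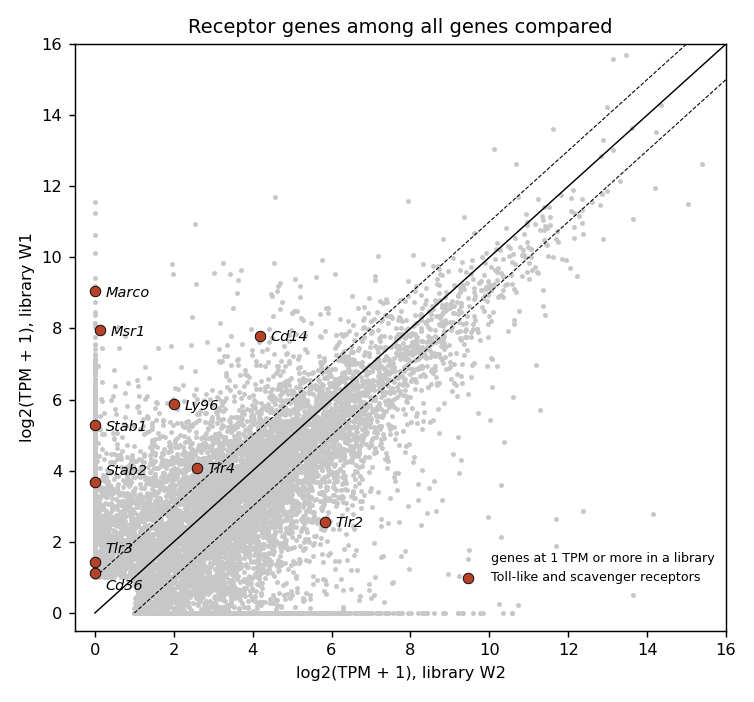
Each grey point is one of 12587 genes at 1 TPM or more in a library, by log2(TPM + 1) in W1 (vertical axis) and W2 (horizontal axis), with the 10 receptor genes in red. The solid line marks equal levels and the dashed lines a 2-fold difference. Marco and Msr1 sit at the upper left edge, with log2 ratios of 9.05 and 7.82, and Tlr2 lies below the lower dashed line at -3.27.

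The markers of possible source cells were read beside these genes. Among macrophage markers, Lyz2 had 186 reads in W1 and 0 in W2, Mertk had 101 and 14, and Csf1r had 122 and 99. Mrc1 had 29 reads in W1 and 0 in W2, C1qb had 13 and 0, C1qc had 5 and 0, Mpeg1 had 8 and 0, and C1qa had 19 and 12. Of the 20 markers on the list, 9 (Adgre1, Itgam, Fcgr1, Cx3cr1, Ccr2, Tyrobp, Cd74, Timd4 and Vsig4) had 0 reads in both libraries, and Cd68 had 1 read in each. Of the 9, Ccr2, Timd4, Fcgr1 and Vsig4 carry 3198, 2124, 2085 and 1316 own 50-mers, while Adgre1, Tyrobp and Cd74 carry 335, 146 and 101. The pan-leukocyte gene Ptprc, with 10666 own 50-mers, had 6 reads in W1 and 0 in W2. Of 10 compared lymphatic or sinusoidal endothelial markers, 7 were higher in W1 and 1 was higher in W2. Those higher in W1 included Lyve1 with 21085 reads in W1 and 0 in W2, Prox1 with 1801 and 0, and Clec4g with 297 and 0. The gene higher in W2 was Reln, with 2 reads in W1 and 158 in W2. Pdpn, with 2411 and 2946 reads, was within 2-fold, and Oit3, with 2433 own 50-mers, had 0 reads in both. The chemokine gene Ccl21a stood at 10177 TPM in W1 and 7543 TPM in W2, within 2-fold. The part of either cell type in the levels of Marco, Msr1, Stab1 and Stab2 was not tested. Of the fibroblast markers 7 of 7 compared, and of the adipocyte markers 1 of 1, were higher in W2, and blood capillary endothelial markers were split with 2 of 6 higher in each library. One lymphocyte marker and one platelet marker passed the filter, Cd79a with 145 reads in W1 and 0 in W2 and Itga2b with 25 and 2.

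Read by transcript, 18 of the 51 listed transcripts had a read in either library. Transcripts with reads had 36 to 3396 own 50-mers (median 413), and the 33 without reads had 0 to 1388 (median 47). Marco, Tlr2, Tlr4, Cd14 and Cd36 were each read on a single coding transcript. Reads on Msr1, Stab1 and Stab2 were spread over several, and these are given in turn.

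Msr1 gives rise to a long and a short receptor by alternative splicing, known as types I and II, and the long one alone carries a cysteine-rich domain at its end. Msr1-201 codes for 458 residues and Msr1-202 for 354. The coding sequences share 1054 bases and part after the exon at chr8:39608085-39608138 (GRCm38, minus strand). To show where they part, this exon is printed in lower case, with the bases that follow it in each transcript in capitals, up to 30 bases of the 320 that Msr1-201 has to itself and all 8 that Msr1-202 has to itself before its stop codon.
Msr1-201: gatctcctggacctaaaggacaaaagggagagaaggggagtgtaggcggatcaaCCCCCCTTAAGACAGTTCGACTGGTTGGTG
Msr1-202: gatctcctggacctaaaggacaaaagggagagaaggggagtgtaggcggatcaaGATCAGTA

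Reads fell mainly on the short form. In W1, Msr1-202 had 2511 reads, 96.4% of the reads of the gene, Msr1-201 had 53 (2.03%) and the retained-intron transcript Msr1-204 had 42 (1.61%). Of the sequence that only Msr1-202 holds, 2531 bases, 8 are coding and 2523 are noncoding. Its count is thus mainly one of noncoding sequence if reads on shared sequence were not counted. Per 1000 own 50-mers, Msr1-202 had 992 reads, Msr1-201 had 143 and Msr1-204 had 18.03 in W1. The 1 read in W2 fell on Msr1-202. Positions of reads along a transcript are not given in the files, and an unequal coverage of transcript ends would act on this comparison, which was not tested.

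Much of the signal of the stabilins came from transcripts annotated as noncoding. For Stab1 in W1, the coding transcript Stab1-201 had 84 reads, 25.1% of the gene, and the retained-intron transcript Stab1-205 had 245 reads, 73.1%. Stab1-205 lies at the 5' end of the gene, and its own 332 bases are all outside the exons of the coding transcript. Per 1000 own 50-mers it had 752 reads, against 28.2 for Stab1-201. For Stab2, 25 of 50 reads fell on the coding transcript Stab2-201 and 25 on the noncoding Stab2-202, Stab2-203 and Stab2-204, whose own bases also lie outside its exons. With coding transcripts alone, Stab1 stood at 3.47 TPM and Stab2 at 1.00 TPM in W1, with 0 reads for both in W2. The antisense gene Gm16268, which shares 141 exonic bases with Stab2, had 21 reads in W1 and 0 in W2.

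**Figure D3:**
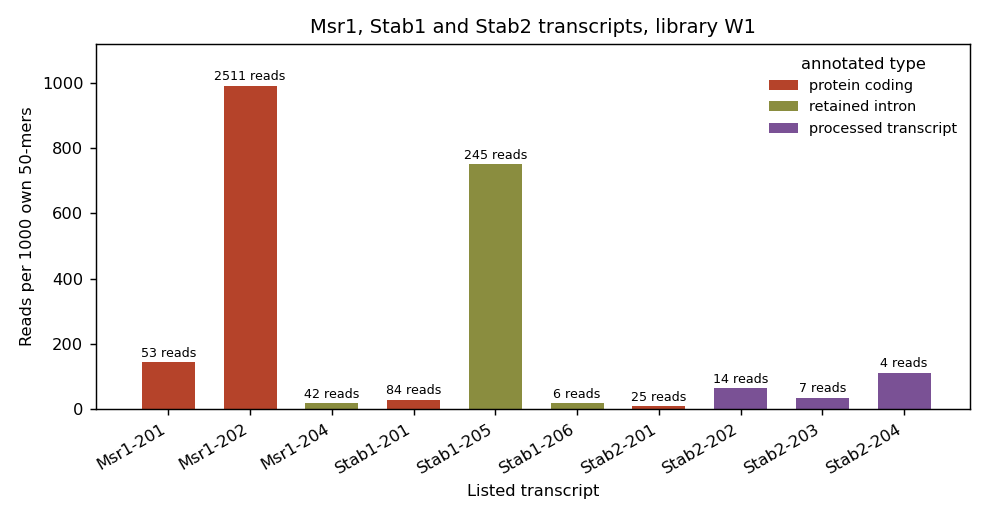
Reads of W1 per 1000 own 50-mers (stretches of 50 bases found in no other listed transcript) for the transcripts of Msr1, Stab1 and Stab2 with reads, coloured by annotated type. Msr1-202, at 992, and the retained-intron transcript Stab1-205, at 752, stand above the other 8.

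To set the genes in order, reads in each library were divided by the own 50-mers of the transcripts read there and by the counted reads of the library, per 1000000. This scale does not even out the transcripts of a gene, as the values of Stab1 above show, so the order is given for coding transcripts and then for all. On coding transcripts the levels in W1 were 631 for Marco, 289 for Msr1, 226 for Cd14, 205 for Ly96, 20.2 for Tlr4, 9.24 for Stab1, 8.97 for Cd36, 4.97 for Tlr2 and 2.41 for Stab2. The intervals of Cd14 and Ly96 overlapped, as did those of Stab1 and Cd36 and of Cd36 and Tlr2, and the other neighbours did not overlap. Over all transcripts, Msr1 (163) came after Cd14 and Ly96, with an interval that overlapped that of Ly96, and Stab1 (30.01) came before Tlr4. The place of Stab1 above Tlr4 therefore rests on its noncoding transcripts. In W2 the levels on coding transcripts were 45.7 for Tlr2, 14.2 for Cd14, 5.08 for Tlr4, 4.49 for Ly96 and 0.104 for Msr1. The interval of Ly96, from 3 reads, overlapped those of Tlr4 and Cd14. Tlr2 was thus the highest of the 10 genes in W2, while in W1 it stood below all but Stab2 of the genes read on coding transcripts.

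Promoter sequences of 6 of the 10 genes were found in the RefSeq table on GRCm38.p6, each from 250 bases before the start site to 50 bases after it. The promoters of Marco, Stab1 and Stab2, 3 genes read in W1 alone, are printed with that of Tlr2, the gene with the opposite direction, so that they can be compared. They lie at chr1:120504975-120505274, chr14:31168592-31168891, chr10:87007893-87008192 and chr3:83841559-83841858, all on the minus strand. Capitals mark matches on either strand to an NF-kB core (GGGA and CC with any 4 bases between) or an ETS core (AGGAAG).
Marco: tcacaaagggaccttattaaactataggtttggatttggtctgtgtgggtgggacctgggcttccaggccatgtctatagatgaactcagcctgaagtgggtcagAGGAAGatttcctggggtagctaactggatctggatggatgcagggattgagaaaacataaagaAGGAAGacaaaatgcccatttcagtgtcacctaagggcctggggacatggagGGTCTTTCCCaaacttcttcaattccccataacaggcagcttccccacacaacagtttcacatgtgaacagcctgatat
Stab1: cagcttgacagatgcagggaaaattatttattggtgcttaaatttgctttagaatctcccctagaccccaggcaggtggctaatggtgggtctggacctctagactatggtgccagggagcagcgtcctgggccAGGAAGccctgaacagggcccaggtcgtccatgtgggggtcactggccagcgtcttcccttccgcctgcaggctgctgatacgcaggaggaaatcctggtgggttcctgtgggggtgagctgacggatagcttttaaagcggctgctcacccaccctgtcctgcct
Stab2: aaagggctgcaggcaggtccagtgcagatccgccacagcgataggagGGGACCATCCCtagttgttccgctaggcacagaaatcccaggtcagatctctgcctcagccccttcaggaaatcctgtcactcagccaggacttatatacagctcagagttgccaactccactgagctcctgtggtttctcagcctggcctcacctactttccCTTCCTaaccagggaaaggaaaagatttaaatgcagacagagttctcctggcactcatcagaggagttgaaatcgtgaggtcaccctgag
Tlr2: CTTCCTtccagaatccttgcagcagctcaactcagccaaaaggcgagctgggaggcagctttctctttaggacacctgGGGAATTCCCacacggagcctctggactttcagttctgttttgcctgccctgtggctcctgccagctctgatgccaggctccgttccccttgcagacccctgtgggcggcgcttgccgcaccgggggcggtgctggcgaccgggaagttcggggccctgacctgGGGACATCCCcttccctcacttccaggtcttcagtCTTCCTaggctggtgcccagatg

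NF-kB is a factor that Toll-like receptors activate, and ETS factors are known from endothelial and myeloid genes. The Tlr2 promoter held 2 matches to the NF-kB core that read on both strands, GGGAATTCCC at position -172 and GGGACATCCC at position -8 from the start site. Start sites are those of the RefSeq table, 83841608 for Tlr2 and 87007942 for Stab2. The transcripts Tlr2-201 and Stab2-201 begin further upstream, at 83841767 and 87008025, so the Tlr2 match at -8 lies within Tlr2-201. Marco held 1 match at position -29, Stab2 held 2 that overlap each other, and Stab1 held none. Over all 32851 promoters of the table, 20.7% held at least 1 such match. The other promoters found, of Tlr3 and Cd36, which were also read in W1 alone, held 3 matches and 1 match. The window of Cd36 has its start site at 17835896, whereas Cd36-204, its only transcript with reads, begins at 17849792. It is therefore not the promoter of that transcript. The ETS core was found in the 4 printed promoters, in neither that of Tlr3 nor that of Cd36, and in 35.4% of all promoters. None of the 4 held an AP-1 site (TGA and TCA with any 1 base between), which 7.81% of all promoters held. None held the core of the interferon-stimulated response element (a pair of GAAA with any 2 bases between), found in 3.44% of all promoters, or a TATA box (TATAAA), found in 13.6%. These matches describe letters in the window and do not show binding.

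Not all signalling genes downstream of the receptors had reads. On the list of adaptors and kinases, 10 genes had 0 reads in W2 and 6 had 0 in W1. Among these, 5 (Ticam2, Irak2, Traf3, Tab1 and Map3k7), with 382 to 4534 own 50-mers, had 0 reads in both libraries. Beside the counts that follow, 34.7% of all genes compared were higher in W1 and 32.9% in W2. Of 21 adaptor and kinase genes, 14 were compared, 7 were higher in W1 and 3 in W2, and the median log2 ratio was 1.28, beside -0.07 over all genes compared. That median ran from 0.61 with a pseudocount of 5 to 2.64 with at least 20 reads. Those furthest toward W1 were the IkB kinase subunit genes Ikbkb (21.01 and 0.406 TPM in W1 and W2) and Ikbkg (10.9 and 0 TPM), the kinase gene Irak4 (9.26 and 0 TPM) and Tab3 (11.8 and 0.876 TPM), which links ubiquitin chains to the kinase TAK1. Among the adaptors that bind the receptors directly, Tirap, which bridges TLR2 and TLR4 to MyD88, stood at 6.11 TPM in W1 and 0.071 TPM in W2. Ticam1, which encodes TRIF, stood at 4.85 TPM in W1 and had 0 reads in W2, at least 14.8-fold.

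Higher in W2 were Ecsit (0 and 5.87 TPM in W1 and W2), a further IkB kinase subunit gene, Chuk (1.13 and 8.45 TPM), and Myd88 (1.74 and 5.19 TPM). Myd88 rests on 2 and 6 reads, and the interval of its ratio, 0.0331 to 1.88, includes 1. The ratio of Chuk in reads had an interval of 0.161 to 1.01, which also includes 1. Traf6, the ubiquitin ligase of the pathway, differed by less than 2-fold (9.10 and 6.91 TPM), and Irak1 had 2 and 0 reads. Among genes with at least 20 reads in a library, 7 of this list were higher in W1 and 0 in W2.

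Co-receptors and chaperones outside the 10 genes were split evenly in the main count. With a pseudocount of 5, upper quartile scaling, FPKM or at least 20 reads, 2 were higher in W1 and 1 in W2. Of 7 such genes, 5 were compared, 2 were higher in each library and the median log2 ratio was -0.10, which turned positive under 5 other settings (0.20 to 1.47). Lbp, the plasma protein that delivers lipopolysaccharide to CD14, had 44 reads in W1 and 0 in W2, and Ly86, which encodes MD-1, had 32 and 0. Tril, a TLR4 accessory protein, had 0 reads in W1 and 187 in W2, at least 61.9-fold higher in W2, and Cnpy3, a chaperone of Toll-like receptors, had 0 and 6. Hsp90b1, the chaperone gp96, stood at 27.7 TPM in W1 and 29.8 TPM in W2. Cd180 and Unc93b1, with 3748 and 624 own 50-mers, had 0 reads in both.

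Inhibitors of the pathway were higher in W1 in 6 of 11 compared genes and in W2 in 1, with a median log2 ratio of 1.03 (0.84 with genes at 0 set to the floor, and 0.43 to 1.51 over the alternatives). Over all genes compared, 34.7% were higher in W1 and 32.9% in W2, with a median of -0.07. With a pseudocount of 5, 3 inhibitors were higher in W1 and 0 in W2. With at least 20 reads, 4 of 8 compared were higher in W1 and 0 in W2. Tnfaip3, the deubiquitinase A20, had 83 reads in W1 and 0 in W2. The phosphatase gene Dusp1 stood at 44.8 TPM in W1 and 14.9 TPM in W2, the RNase gene Zc3h12a at 30.8 and 10.7 TPM, and Tnip1 had 4 and 0 reads. The gene higher in W2, Il1rl1, rests on 0 and 2 reads.

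Of 14 transcription factor genes downstream, 12 were compared, 4 were higher in W1 and 3 in W2, and the median log2 ratio was -0.27, or 0.17 with TPM rescaled over protein-coding genes alone. The NF-kB precursor genes Nfkb1 (17.9 and 3.10 TPM in W1 and W2) and Nfkb2 (1.73 and 0.102 TPM) were higher in W1, with Creb1 (5.52 and 0.431 TPM) and Irf3 (10.5 and 2.64 TPM). Rela, the transactivating NF-kB subunit (101 and 221 TPM), Cebpb (668 and 2041 TPM) and Atf3 (1.33 and 9.91 TPM) were higher in W2. NF-kB subunits thus lay on both sides, and Rela, at a log2 ratio of -1.12, was close to the 2-fold limit.

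Genes that Toll-like receptors are known to induce also lay on both sides. Of 26 genes, 15 were compared, 9 were higher in W1 and 6 in W2, and the median log2 ratio was 1.46 (1.04 with genes at 0 set to the floor, and 0.83 to 3.56 over the alternatives). With a pseudocount of 5, 6 were higher in each library. Toward W1 were the chemokine genes Cxcl9 (133 and 0 TPM in W1 and W2), Ccl2 (15.1 and 0 TPM) and Ccl4 (22 and 0 reads), and Sele, the endothelial adhesion molecule E-selectin (101 and 0 TPM). Toward W2 were Ccl5 (0 and 46.8 TPM), the iron-binding protein gene Lcn2 (0 and 27.4 TPM), the cytokine gene Il1b (0 and 8.46 TPM) and the prostaglandin synthase gene Ptgs2 (39.4 and 284 TPM). Tnf and Il10, with 275 and 1261 own 50-mers, had 0 reads in both libraries. Endothelial markers were higher in the library of Cxcl9 and Sele and epithelial markers in the library of Lcn2 and Ptgs2, and their part was not tested.

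**Figure D4:**
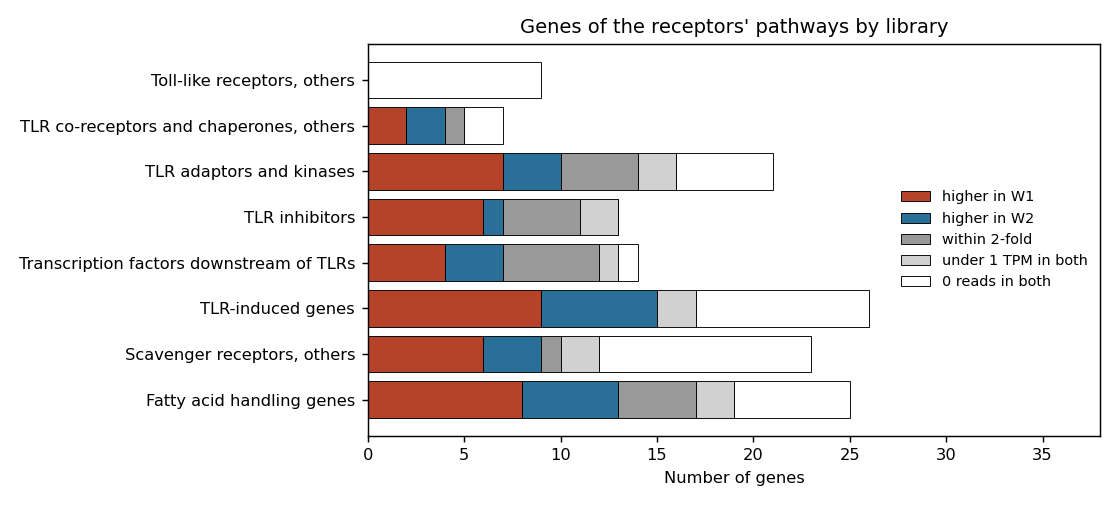
Number of genes of each pathway list that were higher in W1 (red), higher in W2 (blue), within 2-fold (grey), under 1 TPM in both (light grey) or at 0 reads in both (white). The 9 other Toll-like receptors were all at 0 reads, and 9 and 6 of the 26 induced genes were higher in W1 and W2.

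Scavenger receptor genes outside the 10 lay on both sides. Of 23 genes, 10 were compared, 6 were higher in W1 and 3 in W2, and the median log2 ratio was 1.63 (2.84 with genes at 0 set to the floor). With a pseudocount of 5, 2 were higher in W1 and 3 in W2, and over the alternatives the median ran from 0.50 to 3.66. Lyve1, a hyaluronan receptor of lymphatic and sinusoidal endothelium, stood at 2408 TPM in W1 with 0 reads in W2. Scara3 (14.6 and 1.64 TPM in W1 and W2), the lipoprotein receptor gene Scarb1 (3.31 and 0 TPM) and Olr1, the receptor LOX-1 (3.05 and 0 TPM), followed in the same direction. Lrp1, a receptor of lipoproteins and proteases (0.044 and 15.2 TPM), Cxcl16 (10.9 and 94.9 TPM) and the lysosomal Scarb2 (37.3 and 101 TPM) were higher in W2. Cd163, Scara5 and Scarf1, with 1160, 2982 and 95 own 50-mers, were among 11 genes at 0 reads in both libraries.

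Fatty acid genes that act with Cd36 were split as well. Of 25 genes, 17 were compared, 8 were higher in W1 and 5 in W2, with a median log2 ratio of 0.30, which ran from 0.08 to 1.15 over the alternatives. Meox2 (44.2 and 0.695 TPM in W1 and W2) and Tcf15 (15.2 and 0 TPM), transcription factors that drive fatty acid uptake in capillary endothelium, were higher in W1, as were Cav1 (14.3 and 0 TPM) and the carrier gene Fabp5 (8.69 and 0 TPM). Fabp3 (0 and 42.2 TPM), the tetraspanin genes Cd9 (125 and 2311 TPM) and Cd81 (0.431 and 8.70 TPM) and the ligase gene Acsl3 (0 and 2.82 TPM) were higher in W2. The carriers of the family thus differed in direction, with Fabp5 and Fabp4 (91 reads in W1 and 0 in W2) on one side and Fabp3 on the other.

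The named genes nearest in level to a receptor gene, with predicted genes passed over, were found by distance in log2(TPM + 1) over the 2 libraries, which is a description of 2 values per gene. For Marco they were Serpinb1a and Cdh5, for Msr1 Esam and Ehd3, for Cd14 Nid1 and Abca1, for Ly96 Trim30d and Hist1h2ao, for Tlr4 Nfib and Metrnl, and for Tlr2 Xrcc5 and Angptl2. For Stab1 they were Bpifb5 and Hist1h2ag, for Stab2 Snap23 and Bmi1, for Cd36 Atg4d and Mamstr, and for Tlr3 Hoxb6 and Pitpnm1. Angptl2 stood at 5.14 TPM in W1 and 54.4 TPM in W2. Abca1, a cholesterol exporter, stood at 194 TPM in W1 and 16.9 TPM in W2.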

How the data were processed

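RNA of 2 libraries was processed with a Smart-seq reagent and a stranded KAPA kit, per the labels' protocols. Per the submitters' processing notes, Bowtie 0.12.2 and the builds mm8 and GRCm38 were used, with no role given for either build. The deposited values are TPM and FPKM per Ensembl transcript, and no source used here names the authors' counter, annotation or use of strand. Transcripts were matched to GENCODE M21 on GRCm38 (137654 of 137767 matched) and summed per gene. Each table has 2 value columns and 0 others.

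FPKM times transcript length falls on whole multiples of 1 read, within 0.1 read for 98.4% and 98.1% of transcripts above 0 in W1 and W2. Reads recovered in this way gave the intervals (exact Poisson for levels, Clopper-Pearson for ratios, conditional exact for ratios of a pair) and a floor of 3 reads per library. Folds are ratios of reads scaled to TPM. Sequence shared between transcripts was assessed with 50-mers on the transcript strand, a length chosen here. Levels per own 50-mer take reads to come from own sequence alone. Whether reads on shared sequence were counted is not stated in the sources used here. One short noncoding gene, Gm23935, took 27.7% of the TPM of W1 and 4.13% of that of W2.

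With neither library assigned to a class, no test was run. The log2 ratio is that of TPM + 1, which understates low genes. The 10 genes and the 18 gene lists were chosen with earlier results of these data known. Of each pathway list, up to 4 genes per direction with the largest log2 ratio were named, and all of them where 3 or fewer went one way, with the defining adaptors added. Genes at 0, Fabp4 and a few within 2-fold were named after their values were seen. The recovery of reads and the 2-fold call alone were tested on simulated data. Tables were made in Python 3.11.15 (pandas 2.3.3, numpy 2.4.6), intervals in scipy 1.17.1 and plots in matplotlib 3.10.9.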

Additional observations from a re-analysis of the deposited data

How the results depend on the processing

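The counts of 9 genes higher in W1 and 1 in W2 were computed under 12 alternatives, of which those with coding transcripts alone and with scaling over protein-coding genes were chosen after the data were seen, as was the level per own 50-mer, over all and over coding transcripts. The count for W2 was 1 under each. The count for W1 was 9 except with a pseudocount of 5 (7), at least 20 reads (7), reads scaled to library totals (8), intervals wholly beyond 2-fold (8) and coding transcripts alone (8). Tlr3 fell under 2-fold or out of the comparison in each of these, and Cd36 with a pseudocount of 5 and at least 20 reads. No log2 ratio of the other 8 genes fell under 2-fold under the alternatives run for single genes. That of Tlr2 ran from -3.57 to -2.62, of Tlr4 from 1.07 to 2.07, of Cd14 from 3.35 to 4.16, of Marco from 6.74 to 12.37, of Stab1 from 2.16 to 8.56 and of Stab2 from 1.00 to 6.90. The median over all genes compared was -0.07, and moved to between -0.31 and 0.57 with other scalings. Of the counts and medians of the gene lists, 390 of 476 moved by less than the limits set. The median of the co-receptors changed sign under 5 settings (0.20 to 1.47) and that of the transcription factors under 1 (0.17). No paired analysis was possible because there is 1 library of each, and for the same reason no library could be left out. Tlr3 (2 reads in W1), Cd36 (12 in W1) and Ly96 (6 in W2) rest on few reads, which sets the width of their intervals.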
